A study of Culter alburnus with 6 samples.

Results

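The 100 loci with the most reads in control animals of the topmouth culter Culter alburnus, a predatory freshwater relative of the carps, are described here in animals that had been cryopreserved as embryos and in their controls. They are the loci with the highest mean normalized count over the 3 control libraries, out of 28228 loci in the deposited table. A normalized count is the deposited read count divided by the library's size factor, which puts the libraries on a common scale. The control levels chose the members, so those levels are given as a description.

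The cryopreserved group has 3 libraries of embryo RNA, from embryos that were vitrified at the tail-bud stage and rewarmed. The control group has 3 libraries of embryo RNA with the source name WT and no cryopreservation. All 6 samples are labelled as embryos, although the design text mentions larvae, and neither gives the age at sampling, the strain or the number of animals behind a library. Whether the embryos of the cryopreserved group were rewarmed in a water bath or by laser with gold nanorods is not given in the labels either. The labels name no separate spawnings or batches for the replicates, so a p-value covers only the variation among these libraries, part of which may be technical.

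In vitrification, cryoprotectants and very fast cooling turn the water of a cell into a glass, so that ice crystals do not form, and rewarming must be fast enough to keep crystals from growing. In any animal, a small number of genes supplies a large part of the messenger RNA. In fish embryos and larvae these genes commonly include those for ribosomal proteins, translation factors, contractile proteins of muscle, keratins of the skin and globins of the blood. Which of these, if any, the members encode is not known here, because the table and the reference annotation give locus tags in place of gene names. No member is therefore given a name or a role. For the same reason the labelled tissue could not be checked against marker genes, and in bulk RNA fewer cells of a type and less RNA per cell cannot be told apart.

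Library totals were between 28928972 and 30795972 counts in the cryopreserved group and between 26611022 and 29951314 counts in the controls. All 100 members passed the expression filter, and 0 of them was at 0 in any library. The smallest count of a member was 4522, so counting error is small beside the differences between libraries. A read count also depends on the length of the transcript, which was not available here. The order of the members is therefore an order of reads and not of RNA molecules.

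The members held 32.7%, 23.3% and 24.9% of the counts in cryopreserved libraries 1, 2 and 3, against 21.3%, 20.9% and 35.2% in control libraries 1, 2 and 3. The 95% Wilson intervals of these shares were at their widest 35.1352% to 35.1694%, and they cover counting error only. Cryopreserved 1 and control 3 thus stood above the other 4 libraries, 1 in each group, and the groups overlapped. The mean share was 27.0% ± 5.01 in the cryopreserved group and 25.8% ± 8.09 in the controls (SD, n = 3 each), a difference of 1.18 percentage points. It was -1.68, 3.01 and 2.21 points without cryopreserved 1, 2 or 3. Without control 1, 2 or 3 it was -1.06, -1.25 and 5.85 points. A measure that treats every library alike takes each library's own 100 highest loci. These held 28.0% ± 6.05 in the cryopreserved group and 26.2% ± 7.90 in the controls (SD, n = 3 each), with an exact two-sided permutation p of 0.6. With 3 libraries a group the smallest p this test can reach is 0.1.

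**Figure D1:**
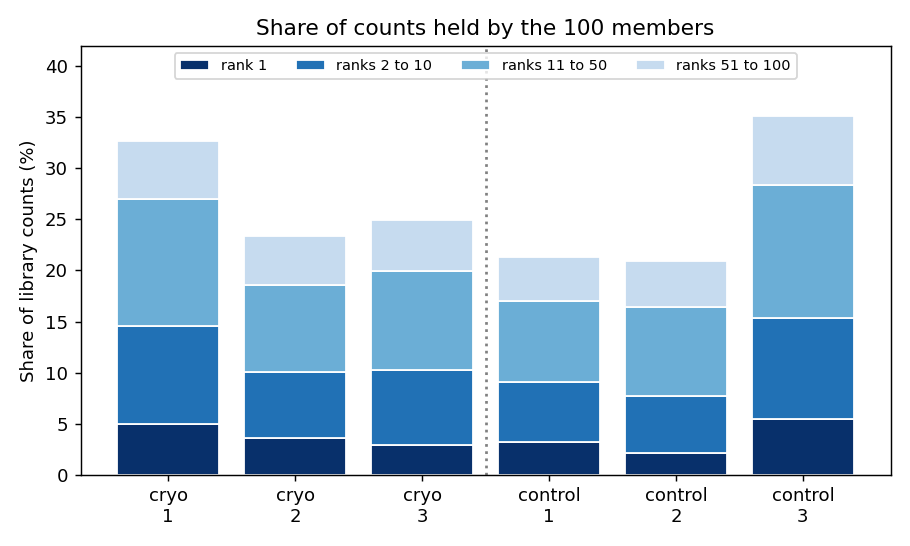
Share of each library's counts (%, y axis) held by the 100 members in the 3 cryopreserved libraries (cryo, left of the dotted line) and the 3 controls, stacked by rank in the control mean. The bars of cryopreserved 1 and control 3 reach 32.7% and 35.2%, and the other 4 lie between 20.9% and 24.9%.

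The upper ranks varied more between libraries than the lower ones. Ranks 1 to 4 held 8.91%, 6.995% and 5.96% of the counts in cryopreserved 1, 2 and 3, against 5.97%, 4.04% and 10.3% in control 1, 2 and 3. Ranks 51 to 100 held 5.72%, 4.72% and 5.02% in the cryopreserved libraries, against 4.35%, 4.51% and 6.76% in the controls. The 100 loci that follow, ranks 101 to 200, held 5.85%, 6.09% and 6.06% in the cryopreserved libraries, against 5.92%, 5.68% and 7.45% in the controls. Control 3 was the highest library in each of these 3 classes, and cryopreserved 1 was not the higher of the cryopreserved libraries in ranks 101 to 200.

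ABG768_010362 was the most abundant locus in all 6 libraries. It took 4.94%, 3.63% and 2.93% of all counts in cryopreserved 1, 2 and 3, against 3.20%, 2.11% and 5.48% in control 1, 2 and 3. Its values differed more within each group than between the group means, which were 3.84% ± 1.02 in the cryopreserved group and 3.60% ± 1.72 in the controls (SD, n = 3 each). Its mean control level was 3.08 times that of the second member and 44.3 times that of the last. The second, ABG768_022702, took 1.37%, 0.934% and 1.07% in the cryopreserved libraries, against 0.964%, 0.731% and 1.80% in the controls. ABG768_007529, at rank 4, took 1.21%, 0.814% and 1.06% in the cryopreserved libraries, against 0.755%, 0.648% and 1.56% in the controls. In both, as in the first, control 3 had the highest share and control 2 the lowest.

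Not all of the top ranks followed that order of libraries. ABG768_000116, at rank 3, was highest in cryopreserved 2 by share, with 1.38%, 1.61% and 0.906% in the cryopreserved libraries, against 1.06%, 0.550% and 1.44% in the controls. By normalized counts it was highest in cryopreserved 1, with 492937 against 413332 in cryopreserved 2. ABG768_024190, at rank 5, was highest in control 2 by share, with 0.486%, 0.459% and 0.863% in the cryopreserved libraries, against 0.658%, 0.987% and 0.816% in the controls. ABG768_011875 at rank 6 ranged from 0.558% to 0.703% in the cryopreserved libraries and from 0.519% to 1.02% in the controls. For each of these loci the groups overlapped.

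ABG768_019363, ABG768_005688 and ABG768_004442, at ranks 7, 8 and 9, were highest in cryopreserved 1. ABG768_005688 took 1.05%, 0.763% and 0.581% in the cryopreserved libraries, against 0.523%, 0.411% and 0.865% in the controls. ABG768_019363 took 1.54%, 0.484% and 0.839% in the cryopreserved libraries, against 0.474%, 0.602% and 0.888% in the controls. ABG768_004442 took 1.43%, 0.320% and 0.704% in the cryopreserved libraries, against 0.515%, 0.643% and 0.572% in the controls, so that its highest and its lowest value were both in the cryopreserved group. The annotated span of ABG768_019363 overlaps that of a locus at control rank 1359. The strand setting of the counting is unknown here, so reads of such a pair cannot be told apart. The same holds for ABG768_014865 and ABG768_027417. The rest of the first 12 members were ABG768_019944, ABG768_004548 and ABG768_013687. ABG768_019944 took 0.482%, 0.483% and 0.580% in the cryopreserved libraries, against 0.413%, 0.243% and 0.904% in the controls. ABG768_004548 took 0.340%, 0.782% and 0.467% in the cryopreserved libraries, against 0.529%, 0.194% and 0.832% in the controls. ABG768_013687 took 0.542%, 0.361% and 0.519% in the cryopreserved libraries, against 0.402%, 0.627% and 0.608% in the controls.

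Membership varied with the library. Of the 100 members, 52 were among the 100 highest loci of all 6 libraries, 22 of 5 libraries and 26 of 1 to 4 libraries. Cryopreserved 1, 2 and 3 had 72, 81 and 88 members among their own 100 highest loci, against 87, 83 and 92 in control 1, 2 and 3. Of the 100 highest loci by the mean of the cryopreserved libraries, 85 were members. The lowest rank of a member was 798 in cryopreserved 1, where it was ABG768_011542, and 932 in control 1, where it was ABG768_012222. At the border, the members at ranks 98, 99 and 100, ABG768_006774, ABG768_013061 and ABG768_027296, had control means of 23965, 23906 and 23794 normalized counts. The loci at ranks 101, 102 and 103 had 23543, 23180 and 23155, well within the control SD of each border member, which was 9988, 13747 and 4619.

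None of the members passed a test of the cryopreserved against the control libraries. With edgeR's quasi-likelihood test over 21846 loci, 0 members passed an adjusted p of 0.05, where 0% of all tested loci did, and 0 members had an unadjusted p under 0.05, where 0.581% of all tested loci did. With limma-voom 0 members passed either threshold, against 0% and 0.458% of tested loci. DESeq2 called 0 members, against 0.0196% of its 25538 loci, and 1 member had an unadjusted p under 0.05, against 1.43%. That member, ABG768_027296, had 116355, 25165 and 33063 normalized counts in cryopreserved 1, 2 and 3, against 18676, 27654 and 25053 in control 1, 2 and 3. Cryopreserved 1 was far above the rest, and cryopreserved 2 lay within the range of the controls. The log2 fold change was 1.30 ± 0.62 (SE), the smallest p of any member with edgeR was 0.0702 at this locus, and its adjusted p was 0.999955. Without cryopreserved 1 the log2 fold change was 0.31.

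A fitted change of at least 2-fold was found for 4 members higher in the cryopreserved group, where 3.66% of all tested loci had one, and for 0 members lower, where 2.83% did. These 4 were ABG768_023108, ABG768_023109, ABG768_027296 and ABG768_023107. There were 0 higher with a replicate block, and 0 without cryopreserved 1, where 2.69% of tested loci had such a change. Without control 3 there were 16, where 5.33% of tested loci had such a change, and without cryopreserved 2 there were 10, where 7.13% did. All 3 controls had helped choose the members, and controls 1 and 2 remain in the fit without control 3. The 16 are therefore a description. ABG768_027417 and ABG768_016923 followed with log2 fold changes of 0.97 ± 0.60 and 0.96 ± 0.79 (SE), which were 0.09 and -0.36 without cryopreserved 1. In the other direction, ABG768_008115 had the lowest log2 fold change, -0.71 ± 0.61 (SE), which was -1.25 without cryopreserved 3, -1.08 without control 1, -0.43 without cryopreserved 2 and -0.37 without control 3. It had 36087, 24821 and 69667 normalized counts in the cryopreserved libraries, against 29709, 84999 and 100944 in the controls, with the groups overlapping. ABG768_015147 followed with -0.67 ± 0.53 (SE), and 0.04 without control 3.

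The precision of a fold change in these loci was low in spite of their depth. By limma-voom, a member's log2 fold change had a 95% interval of median half-width 1.08, and a tested locus one of 1.16. Both ends of the interval lay inside a 2-fold change for 6 members, against 21.1% of all tested loci. These were ABG768_024722, ABG768_017211, ABG768_004231, ABG768_006141, ABG768_014274 and ABG768_016367. The narrowest of these 6 intervals was that of ABG768_006141, from -0.85 to 0.80. For the other 94 members the interval reached past a 2-fold change in at least 1 direction.

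**Figure D2:**
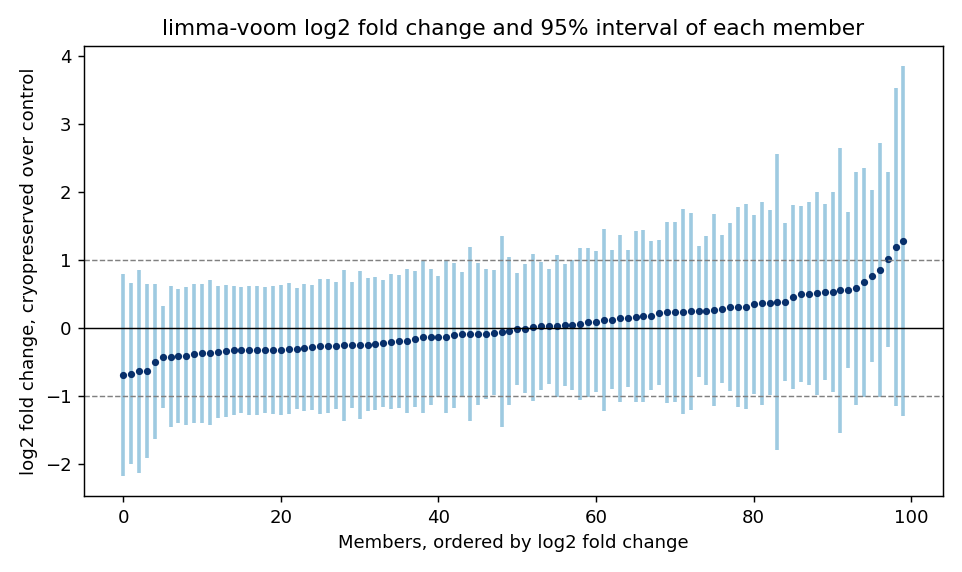
The limma-voom log2 fold change of cryopreserved over control (y axis, points) with its 95% interval (bars) for each of the 100 members, ordered from the lowest to the highest. Dashed lines mark a 2-fold change, and every interval reaches across 0.

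One member had groups that did not overlap. ABG768_012220 had 38076, 31157 and 37676 normalized counts in the cryopreserved libraries, against 49206, 42063 and 54814 in the controls, so each cryopreserved library lay below each control. It also had the smallest ratio of highest to lowest library among the members, 1.76. Its log2 fold change was -0.43 ± 0.37 (SE), with an edgeR adjusted p of 0.999955, and it lay between -0.53 and -0.34 with each library left out in turn. Lack of overlap with lower values in the cryopreserved group was found for 2.04% of all tested loci and with higher values for 1.57%, where 1 and 0 members had it. The choice of members by their control level favours loci with high control values, and so loci that are lower in the cryopreserved group.

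The direction of the fitted levels turned with single libraries. Of the 100 members, 40 had a fitted level that was higher after cryopreservation, where 51.6% of all tested loci did, and the median log2 fold change was -0.07 over the members and 0.02 over all tested loci. Without cryopreserved 1, 13 members were higher, where 51% of tested loci were, and without control 3, 91 members were higher, where 52.8% were. Without both, 76 were higher, where 48.8% were. The members were not chosen anew for these fits, and all 3 controls had helped choose them, so these numbers are a description. With control 3 left out of the choice, 89 of the 100 members remained. With 100 loci chosen over all 6 libraries, a choice made after seeing the data, 49 were higher. No direction of the members as a group can be given from these libraries.

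**Figure D3:**
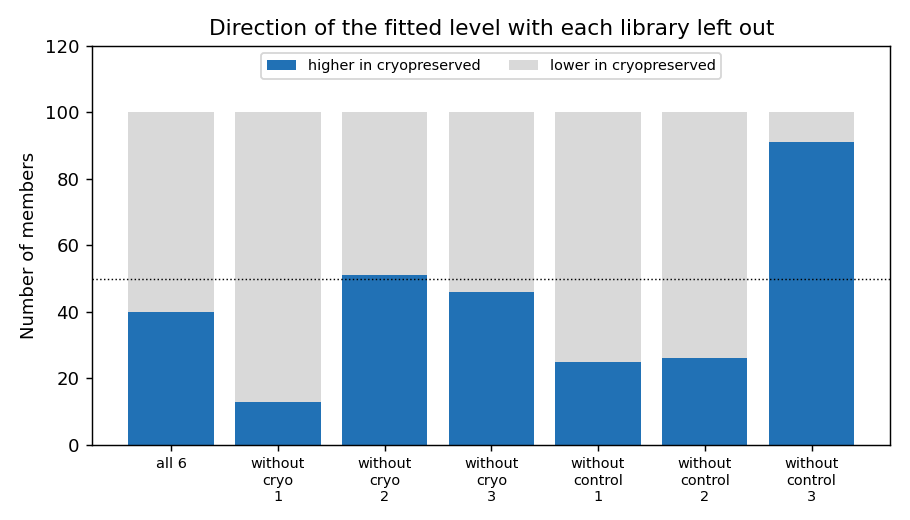
Number of the 100 members (y axis) with a higher (blue) or lower (grey) fitted level in the cryopreserved group, with all 6 libraries and with each library left out. The number higher is 40 with all libraries, 13 without cryopreserved 1 and 91 without control 3. The members, chosen on all 3 controls, were not chosen anew.

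Single libraries were where the members moved. A member was counted as far from the rest in a library when it was at least 2-fold above the median of its normalized counts in the other 5, or at most 0.5 of it. Cryopreserved 1 had 27 members above, where 13.9% of all tested loci were above, and 4 at or below 0.5, where 20.1% were. Control 3 had 50 above, where 9.56% of all tested loci were, and 0 at or below 0.5, where 21.1% were. The high numbers above were not particular to the members. Of the 100 loci at ranks 101 to 200, 23 were above in cryopreserved 1 and 41 in control 3. At or below 0.5 were 13 of these loci in cryopreserved 1 and 0 in control 3. The other 4 libraries had few members above, 2 in cryopreserved 2, 1 in cryopreserved 3, 0 in control 1 and 1 in control 2, where 6.18%, 6.39%, 5.03% and 8.41% of tested loci were. At or below 0.5 they had 7, 1, 6 and 9 members in the same order, where 12.1%, 3.15%, 9.03% and 5.27% of tested loci were. For 30 members cryopreserved 1 was the highest library, and for 67 it was control 3, which leaves 2 with cryopreserved 2 and 1 with control 1. Over all tested loci, cryopreserved 1 was the highest for 28.0% and control 3 for 23.8%.

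Control 3 took part in the choice of members, which favours loci that are high in it. With 100 loci chosen on the cryopreserved libraries, 38 were at least 2-fold above in control 3, and with 100 chosen on controls 1 and 2, 40 were. Both choices were made after seeing the data. The number depended more on the scale. In cryopreserved 1 and control 3 a library total corresponds to 35697495 and 33645398 normalized counts, against 24779777 to 26065203 in the other 4. Measured as a share of the library total, the median of all tested loci lay at a log2 ratio of -0.47 in cryopreserved 1 and -0.34 in control 3. On that scale 12 members were at least 2-fold above in cryopreserved 1, where 7.44% of tested loci were, and 7 in control 3, where 4.21% were. The median member was then at a log2 ratio of -0.06 in cryopreserved 1 and 0.61 in control 3. The median member lay above the median tested locus on both scales in cryopreserved 1, cryopreserved 3 and control 3, by the least in cryopreserved 3. By share, 57 members were highest in control 3 and 24 in cryopreserved 1.

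**Figure D4:**
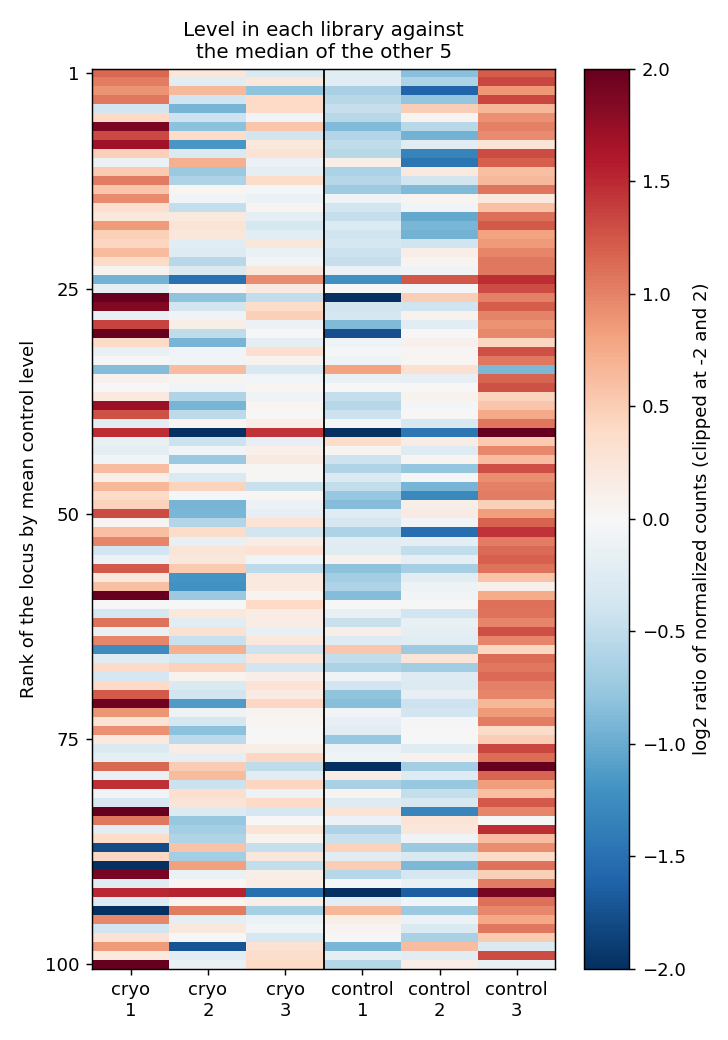
Log2 ratio of each member's normalized count in a library to the median of its other 5 libraries (colour, clipped at -2 and 2), for the 100 members in order of control rank (rows, rank 1 at the top) and the 6 libraries (columns, cryopreserved left of the line). The column of control 3 is red almost throughout, with 96 members above the median of the others, whereas cryopreserved 1 holds both strong red and strong blue rows.

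Some of the members that were high in control 3 were almost level in the other 5 libraries. In normalized counts, 22 members stayed within 1.5-fold of each other in those 5 and were at least 2-fold higher in control 3, as were 0.462% of all tested loci. Control 3 had helped choose the members, so such loci could enter through it, and the choice itself favours the larger share among members. ABG768_025844 is the clearest case, with 34847, 33768 and 35821 normalized counts in cryopreserved 1, 2 and 3, against 34941, 34642 and 84149 in control 1, 2 and 3. The highest of its 5 lower values was 1.06 times the lowest. The pattern depended on the scale. By share of the library total this locus took 0.0976%, 0.132% and 0.137% in the cryopreserved libraries, against 0.140%, 0.140% and 0.250% in the controls. By share, 7 members in all were at least 2-fold above in control 3. ABG768_022661, ABG768_012221, ABG768_008115 and ABG768_016444 were among these 7 and lie outside the 22. Few of the 22, if any, could therefore meet the rule by share. ABG768_023438 had 41002, 46169 and 52104 in the cryopreserved libraries, against 46411, 44942 and 113987 in the controls. ABG768_023751 had 34870, 37048 and 47733 in the cryopreserved libraries, against 38018, 38558 and 93027 in the controls, and ABG768_027169 had 17182, 21357 and 20939 in the cryopreserved libraries, against 19246, 17782 and 48734 in the controls. These 4 were also among the 6 lowest log2 fold changes of the members, at -0.54, -0.55, -0.49 and -0.51 in the order named, and without control 3 the values were 0.02, 0.05, 0.08 and 0.12. Such small values without control 3 follow from the rule that the other 5 libraries were level. All 22 lay between 2.01-fold and 2.53-fold of the median of the others in control 3, and together they took 1.67%, 2.48% and 2.68% of the counts in the cryopreserved libraries, against 2.44%, 2.39% and 4.10% in the controls. This set was defined after the values were seen and has no test.

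**Figure D5:**
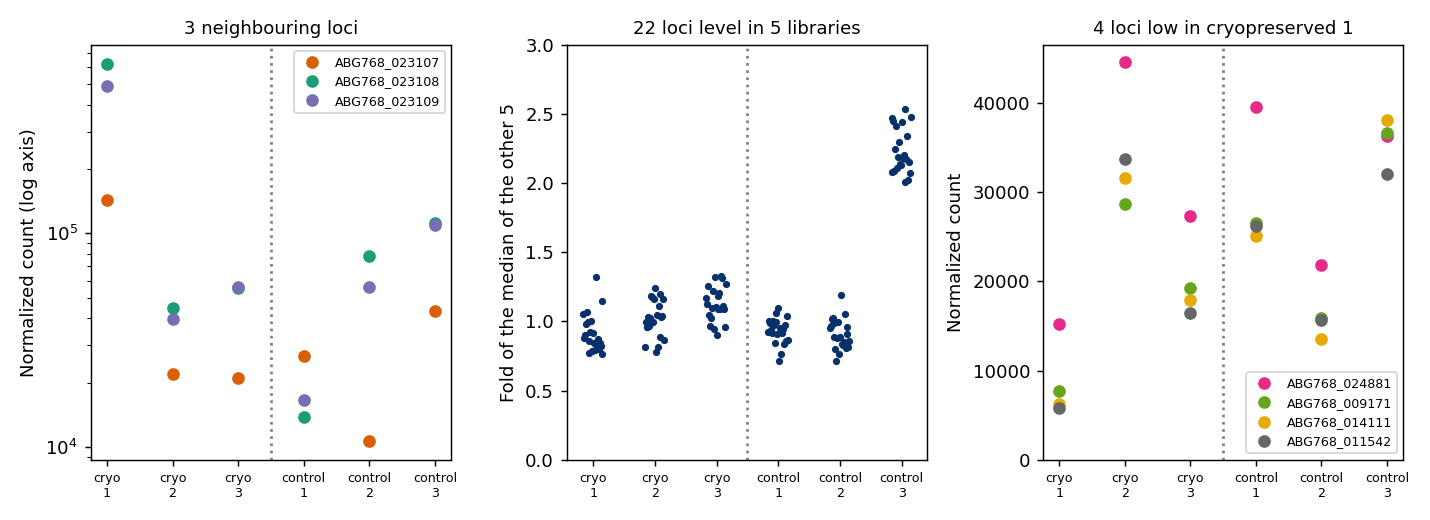
Values in each of the 3 cryopreserved libraries (cryo, left of the dotted lines) and the 3 controls: normalized counts on a log axis for 3 neighbouring loci (left panel), fold of the median of the other 5 libraries for 22 members that were level in 5 libraries (middle), and normalized counts for 4 members that were low in cryopreserved 1 (right). The 22 loci, picked for this pattern in normalized counts, lie between 2.01-fold and 2.53-fold in control 3 and near 1-fold elsewhere.

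Cryopreserved 1 held the widest departures. ABG768_023108 had 626020, 44795 and 55706 normalized counts in cryopreserved 1, 2 and 3, against 13759, 78329 and 111899 in control 1, 2 and 3. Cryopreserved 1 was 11.2-fold above the median of the others, and control 1 was the lowest, at 0.176 of it. The locus that follows in the annotation, ABG768_023109, had 493471, 39765 and 56323 in the cryopreserved libraries, against 16641, 55860 and 109223 in the controls, and the one that precedes it, ABG768_023107, had 142842, 21914 and 20926 in the cryopreserved libraries, against 26512, 10652 and 43245 in the controls. These 3 neighbours took 3.54%, 0.416% and 0.510% of the counts in the cryopreserved libraries, against 0.228%, 0.585% and 0.786% in the controls. ABG768_023108 was the second most abundant locus of cryopreserved 1.

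Their log2 fold changes were 1.84 ± 1.16, 1.70 ± 1.08 and 1.21 ± 0.86 (SE) for ABG768_023108, ABG768_023109 and ABG768_023107, each with an edgeR adjusted p of 0.999955. Without cryopreserved 1 they were -0.41, -0.31 and -0.30. ABG768_023107 was low in another control than the other pair, in control 2 in place of control 1. The next loci on either side were not abundant. ABG768_023106 had 8295, 244 and 1006 normalized counts in the cryopreserved libraries, against 750, 543 and 483 in the controls, and so was also highest in cryopreserved 1. ABG768_023110 had 281, 50.5 and 43.1 in the cryopreserved libraries, against 115, 54.0 and 61.8 in the controls, again highest in cryopreserved 1.

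A total of 5 members were at least 4-fold above the median of the others in cryopreserved 1. The share of all tested loci at 4-fold is not given here, so the 5 are a description. Beside the 3 neighbours around ABG768_023108 they were ABG768_027296 and ABG768_016923. ABG768_016923 had 152196, 20378 and 34213 normalized counts in the cryopreserved libraries, against 18735, 32999 and 55051 in the controls. Of the 27 members at least 2-fold above in cryopreserved 1, 10 were so in control 3 too, where 1.01% of tested loci were 2-fold above in both. Taken singly, 27 members were above in cryopreserved 1 and 50 in control 3, against 13.9% and 9.56% of tested loci. These higher single rates raise the number above in both, so the 10 do not show that the 2 rises go together. ABG768_010362, ABG768_022702 and ABG768_007529 of the first 4 ranks were among these 10. The 17 that were 2-fold above in cryopreserved 1 alone of the pair held 8.33% of its counts, and between 2.81% and 4.38% of the counts of any other library. They were picked on their level in cryopreserved 1, so a higher share there follows from the pick.

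A set of 4 members went the other way and were at most 0.5 of the median of the others in cryopreserved 1. ABG768_011542 had 5766, 33640 and 16434 normalized counts in cryopreserved 1, 2 and 3, against 26170, 15686 and 31985 in control 1, 2 and 3. ABG768_014111 had 6244, 31518 and 17898 in the cryopreserved libraries, against 25062, 13494 and 38015 in the controls. ABG768_009171 had 7699, 28691 and 19233 in the cryopreserved libraries, against 26564, 15896 and 36578 in the controls. ABG768_024881 had 15246, 44564 and 27271 in the cryopreserved libraries, against 39544, 21824 and 36269 in the controls. In all 4, cryopreserved 2 exceeded cryopreserved 3, and control 2 was the lowest control. They were named after their values were seen.

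A few members differed widely in several libraries at once. ABG768_022661 had 69843, 13482 and 68243 normalized counts in cryopreserved 1, 2 and 3, against 10455, 25104 and 111780 in control 1, 2 and 3. It was far from the others in all 6 libraries, and its values fell into a high and a low part within each group. ABG768_001081 had 40081, 41183 and 14145 in the cryopreserved libraries, against 8567, 12795 and 52890 in the controls. Both loci had the lowest level in control 1 among the controls and the highest in control 3. ABG768_006774, at rank 98, was lowest in cryopreserved 2, with 40904, 8375 and 27701 in the cryopreserved libraries, against 14759, 34584 and 22552 in the controls.

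Members next to each other in the annotation formed 3 runs with 8 members in all. The spans of the members in a run do not overlap, but whether they are near-identical copies that share reads was not checked, as no sequence was available here. Besides the run around ABG768_023108, one run is formed by ABG768_012220, ABG768_012221 and ABG768_012222. ABG768_012221 had 44893, 38329 and 29723 normalized counts in the cryopreserved libraries, against 24906, 13343 and 81131 in the controls. ABG768_012222 had 34366, 22068 and 15550 in the cryopreserved libraries, against 4088, 13846 and 65464 in the controls. Both ran in the same order over the cryopreserved libraries in normalized counts, whereas ABG768_012220 varied little and in another order. Over the controls the order of the pair differed. Control 1 exceeded control 2 for ABG768_012221 and lay below it for ABG768_012222. In normalized counts all 3 were highest in control 3. As a share of the library total, ABG768_012220 was highest in control 1, at 0.197%, against 0.163% in control 3. The third run is the pair ABG768_011875 and ABG768_011876. ABG768_011876 had 78740, 18842 and 31810 in the cryopreserved libraries, against 30093, 35535 and 56727 in the controls, so cryopreserved 1 was its highest library, whereas control 3 was that of ABG768_011875.

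Without control 3, 4 members had an unadjusted p under 0.05 with edgeR, where 1.25% of tested loci did, and 0 passed adjustment. They were ABG768_018433, ABG768_024981, ABG768_018430 and ABG768_001081, and their values had been seen when they were named. ABG768_018433 had 53827, 41414 and 42638 normalized counts in the cryopreserved libraries, against 25088, 17467 and 83736 in the controls. The log2 fold change without control 3 was 1.13 ± 0.36 (SE), with an adjusted p of 0.999958 by edgeR. ABG768_018430, which lies 3 places before it by locus number, had 54013, 35319 and 35878 in the cryopreserved libraries, against 23626, 20996 and 86117 in the controls. ABG768_024981 had 171944, 120683 and 117331 in the cryopreserved libraries, against 74018, 65454 and 245384 in the controls. In each of these 3 loci every cryopreserved library exceeded controls 1 and 2 and lay below control 3. In total 22 members had every cryopreserved library above controls 1 and 2, as did 6.05% of all tested loci. All 3 controls had helped choose the members, and controls 1 and 2 remain in these comparisons. The 22 and the 4 are therefore a description.

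The members were spread over the genome and tended to have short spans. They lay on 24 of the 30 sequences of the annotation, with at most 8 on one. The median span, introns included, was 5215 bases over the members and 9756 bases over all tested loci, and 73 members were shorter than that median. The span ranged from 907 bases to 239907 bases, and the longest was that of ABG768_023107. Chosen per base of span in place of the plain count, 63 of the 100 members remained.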

How the data were processed

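Per the labels' protocols, RNA from a Trizol extraction was enriched for messenger RNA with poly-T beads, copied with random hexamers and sequenced on Illumina machines. A single table of raw read counts per locus in 6 libraries was deposited by the authors, per the file headers. The aligner, counter, genome build, annotation and strand use were each not given in the sources used here, so no coordinates are printed. All 28228 locus tags occur in the annotation of assembly ASM4018292v1, whose symbol column repeats the tag for each, so 0 symbols of the planned gene lists could be matched. Its order and spans were used. Among counts of 1 to 20, 59.9% to 68.5% were even, so a count may not be one fragment and counting intervals are too narrow to that extent.

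Members were the 100 loci with the highest mean count over the controls after division by DESeq2 size factors. The members and lists were chosen with earlier results of these data known. Loci were tested in R 4.3.3 with edgeR 4.0.16 (quasi-likelihood test) and its default filter by group, TMM factors and group as the single term, with Benjamini-Hochberg adjustment over 21846 loci and a threshold of 0.05. The standard error was the log2 fold change divided by the root of F. Intervals came from limma-voom (limma 3.58.1). DESeq2 1.42.0, other scalings and filters, a replicate block and leaving out libraries were alternatives. The procedure was also run on simulated data, but the outcome is not given here, so nothing is said about the power of the tests. Ratios to other libraries set a count of 0 to 0.5 over all tested loci. Named loci were the 12 highest members, the 6 highest and 6 lowest log2 fold changes, up to 3 farthest per library, those without overlap, the border and neighbouring runs. Others are named after their values were seen. All pairs of libraries differed beyond sampling noise (smallest chi-square per locus 49.0, where noise gives about 1). The exact test ran under scipy 1.17.1 (Python 3.11.15).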

Additional observations from a re-analysis of the deposited data

How the results depend on the processing

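The count of members called was 0 in every setting tried. With all 6 libraries, 0% of all tested loci were called by edgeR, 0% by limma-voom and 0.0196% by DESeq2. For the other settings this share is not given here, so the 0 shows nothing particular to the members. The number with a fitted level at least 2-fold higher, 4 as reported, was 0 with the replicate block and 0 to 16 with each library left out, and the number 2-fold lower, 0 as reported, was 0 to 2. The deviations of same-numbered libraries from their group means were correlated at -0.14, -0.39 and -0.05 for replicates 1, 2 and 3, so the block rests on a shared number only. The number with a higher fitted level, 40 as reported, was 13 to 91 with each library left out and 76 without control 3 and cryopreserved 1 together. Members without overlap were 0 to 22 higher and 1 to 4 lower with each library left out, where 3.49% to 7.0% and 4.68% to 8.16% of all tested loci were, 30 higher and 2 lower without control 3 and cryopreserved 1, where 12.6% and 13.5% of all tested loci were, and 3 lower by share of the library total, where 2.26% were. Leaving out libraries leaves fewer values that must not overlap. The members were not chosen anew, and the choice had used control 3 as well as controls 1 and 2, so these numbers are a description. The difference in share of each library's own 100 highest loci, 1.81 points, was -1.67 to 6.37 points with each library left out, and turned without cryopreserved 1 (-1.67), control 1 (-0.39) or control 2 (-0.56).

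Cases of a member far from the rest in a library numbered 108 over the 6 libraries, 14 at 4-fold, 223 at 1.5-fold and 51 by share of the library total. A member counts once for each library in which it is far. At 2-fold, 26 members were far in no library, where 41.7% of all tested loci were far in none. In cryopreserved 1, 27 were above, 5 at 4-fold, 41 at 1.5-fold and 12 by share. In control 3, 50 were above, 2 at 4-fold, 80 at 1.5-fold and 7 by share. The share of all tested loci at 4-fold and at 1.5-fold is not given here, so the counts at these thresholds show nothing particular to the members. Of the 100 members, 89 to 97 remained with each control left out of the choice and 63 per base of span. With each library left out, the log2 fold change was -0.41 to 2.41 for ABG768_023108, -0.31 to 2.45 for ABG768_023109, -0.30 to 1.75 for ABG768_023107, -0.36 to 1.43 for ABG768_016923, -0.999 to 0.042 for ABG768_015147, -0.78 to 0.05 for ABG768_023438, -0.77 to 0.023 for ABG768_025844, -0.77 to 0.12 for ABG768_027169 and -0.71 to 0.08 for ABG768_023751. For the last 5 it was 0.024, 0.13, 0.023, 0.22 and 0.17 without control 3 and cryopreserved 1. For these shifts the cause was not tested.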

Other observations

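A total of 15 loci were among the 100 highest by the mean of the cryopreserved libraries and were not members. By that choice they are high in the cryopreserved group, so their levels are a description. ABG768_014033 had the lowest control rank of them, 325, and cryopreserved rank 77. It had 72787, 2620 and 15467 normalized counts in cryopreserved 1, 2 and 3, against 4965, 15921 and 7552 in control 1, 2 and 3, and its highest and lowest values were both in the cryopreserved group. ABG768_027295, the locus numbered before the member ABG768_027296, had 91338, 16674 and 26195 in the cryopreserved libraries, against 12888, 24048 and 12944 in the controls. Like ABG768_027296 it was highest in cryopreserved 1, then in cryopreserved 3, and lower in control 1 than in control 2. ABG768_025772, the highest of the 15 in the cryopreserved mean, had 98540, 17037 and 27974 in the cryopreserved libraries, against 18284, 24550 and 22635 in the controls, with cryopreserved 1 alone above the controls by more than 2-fold. These loci were named after their values were seen.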
